A study of Mus musculus with 2 samples.

Results

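The endothelial cells described here are 97 of the 15632 mouse mammary gland cells that passed the quality limits, 49 of 6297 from the Ctrl library and 48 of 9335 from the CL library. They were picked cell by cell from their own transcripts. A cell was taken if it held at least 5 UMIs (unique molecular identifiers, which count captured transcripts) over the 6 endothelial genes Pecam1, Cdh5, Egfl7, Kdr, Emcn and Cldn5, with at least 2 of the 6 detected, no UMI of the leukocyte gene Ptprc, under 10 UMIs of Krt8, Krt18 and Krt14 and under 20 UMIs of Col1a1 and Col1a2. Both libraries are 10x Genomics 3' libraries from female wild-type mice, labelled 9 to 10 weeks old, with 8 to 10 weeks in the protocol. The library labelled CL came from mice given clodronate liposomes intraperitoneally, vesicles that kill the phagocytes taking them up. The library labelled Ctrl came from control mice, whose treatment the labels do not describe further. CD45+ immune cells and CD31- TER119- cells were sorted for both, so most endothelial cells, which carry CD31 (the product of Pecam1), should have been removed, and in what proportion the fractions were mixed was not stated. The cells seen here are those that remained, and they need not represent the vessels of the gland.

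Endothelial cells line blood and lymphatic vessels, hold the vessel wall together through VE-cadherin and claudin 5, and differ along the vascular tree. Venules carry selectins and adhesion molecules that capture leukocytes, capillaries exchange lipids and solutes with the fat pad, arteries respond to Notch signalling, and lymphatic vessels drain fluid and immune cells under the transcription factor PROX1. Endothelial cells also respond to interferon gamma, made by T cells and NK cells, with chemokines, guanylate-binding proteins and antigen-presenting molecules.

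Each group had 1 library, so no test between groups was possible and no p-value is given. Intervals are exact 95% intervals (Poisson for levels, Clopper-Pearson for shares, conditional binomial for ratios), and they cover counting error only, not the spread between mice. The libraries held 118743318 (Ctrl) and 155765480 (CL) UMIs, with medians of 11910 and 10853 UMIs per retained cell. Levels are CPM, the UMIs of a gene relative to all UMIs of the cells that were summed, and ratios are log2 of CL over Ctrl. The 4 macrophage genes Lyz2, C1qa, Csf1r and Adgre1 summed to 31.3 (Ctrl) and 163 CPM (CL) over all retained cells, a log2 ratio of 2.38 (2.32 to 2.43), in the library that the labels call macrophage-depleted. Lyz2 carried most of this, at 12.3 and 135 CPM (3.45), and the other 3 genes summed to 19.0 and 27.9 CPM, a log2 ratio of 0.55 (0.47 to 0.63). The 13 leukocyte genes used below, Lyz2 and C1qa among them, went from 186 to 547 CPM (1.55) in the cells other than endothelial ones. Because the lists share genes, their ratios are not compared. Depletion and the unstated mixture of sorted fractions cannot be told apart from these sums. With 1 library per group no value could be given without these libraries.

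The endothelial cells made up 0.778% (0.576 to 1.03%) of cells in Ctrl and 0.514% (0.379 to 0.681%) in the library labelled CL, and the interval of the log2 ratio, -1.20 to 0.01, just held 0. It lay below 0 under 4 of the alternatives, a mitochondrial limit of 5% (-1.37 to -0.08), no such limit (-1.23 to -0.04), 10 UMIs of the choosing genes (-1.31 to -0.03) and cells with mural or leukocyte UMIs removed (-1.29 to -0.04). The ratio also depends on the limits for other cell types. The endothelial part of the rule alone was met by 52 cells in Ctrl and 66 in CL, of which 49 and 48 were kept. Keratin limits were failed by 3 cells in Ctrl and 13 in CL. Ptprc was failed by 0 and 5, and collagen limits by 0 and 2. The endothelial cells were shallower than the other cells, with medians of 4500 (Ctrl) and 5437.5 (CL) UMIs and 1926 and 2003.5 genes per cell. None was marked as a doublet, and of 12 barcodes that both libraries shared among the retained cells 0 belonged to an endothelial cell. In all, 246677 and 291014 UMIs stand behind the summed values.

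The cells sat well inside the rule that chose them, and what follows on these genes is a description. The 6 genes together had a median of 24 UMIs per cell in Ctrl (5 to 117) and 28.5 in CL (6 to 152). Just inside the limit, 3 cells in each library held 5 to 7 UMIs, and their levels of a wider list of 25 endothelial genes were 5578 and 6422 CPM. Just outside, 4 cells in Ctrl and 3 in CL held 3 to 4 UMIs, with 1053 and 2115 CPM of the wider list, against 8769 and 8927 CPM over all endothelial cells. Pecam1, the gene of the depleted surface protein, had UMIs in 47 of the cells in each library, at 1163 CPM in Ctrl and 1395 CPM in CL. Since Pecam1 helped to choose the cells, this says nothing about how many CD31 carrying cells the sort left. The wider list stood at 54.8 and 51.9 CPM in all other retained cells, so the endothelial label held for both libraries. Outside the choosing genes, the 10 genes with the highest ratio of endothelial cells over all other cells were Mmrn1, Robo4, Tie1, Stmn2, Adgrl4, Tmem252, Sox17, Gpihbp1, Ccl21a and Nts, among them receptors (Robo4, Tie1) and a transcription factor (Sox17) of vessels. Ccl21a, a lymphatic chemokine, came from 1 cell in each library.

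Genes of other cells were scarce in them, which the rule partly set in advance through its limits on Ptprc, keratin and collagen UMIs. The leukocyte, epithelial and fibroblast levels are therefore a description and no measure of purity. Mural and adipocyte genes were not limited by the rule. The 13 leukocyte genes gave 6 UMIs in Ctrl and 4 in CL, 7 of the 13 were at 0, and the levels of 24.3 and 13.7 CPM lay below the 184 and 468 CPM of empty droplets, the barcodes of 100 to 300 UMIs that measure free RNA. Epithelial genes stood at 1111 and 907 CPM against 17588 and 18296 CPM in empty droplets. Fibroblast genes stood at 166 and 144 CPM and mural genes at 413 and 399 CPM, summed levels again below the empty droplets. Single cells went higher for the mural list, up to 7635 CPM in a capillary-like cell of Ctrl and 5801 CPM in a venous-like cell of CL, against 21041 and 22934 CPM in mural cells, and 1 cell held 35.3% and 32.8% of the list's UMIs. A list of 6 adipocyte genes stood above the empty droplets, at 64.9 CPM in Ctrl and 199 CPM in CL, of which 93.1% in CL came from 1 cell.

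Clustering split the 97 cells into 4 subsets, named from marker lists (the plot of marker levels by subset). The 33 venous-like cells (17 in Ctrl, 16 in CL) held 99.4% of the UMIs of Selp, which encodes P-selectin, and 99.8% of those of Ackr1, the chemokine receptor of venules. The 30 lymphatic-like cells (20 and 10) held all 201 UMIs of Mmrn1, 92.6% of those of Prox1 and 96.8% of those of Nts, the neurotensin gene. The 17 capillary-like cells (7 and 10) were led by Gpihbp1, which carries lipoprotein lipase to the capillary wall, and also by the interferon-induced Rsad2. The 17 arterial-like cells (5 and 12) held all 38 UMIs of Sema3g. Cldn5, one of the choosing genes, was at 0 UMIs in the 33 venous-like cells and at 2295 CPM in lymphatic-like, 4363 CPM in arterial-like and 5031 CPM in capillary-like cells. These genes define the subsets and are no finding, and the numbers of cells per subset are not read as a difference between libraries. Because the mixture differed, values within subsets and with the 4 subsets weighted equally are given beside pooled ones. Pooled over all endothelial cells, the subset marker lists had log2 ratios of 0.28 (arterial), 0.08 (capillary), -0.17 (venous) and -0.70 (lymphatic). Under 4 other clusterings, 96 or 97 of the 97 cells kept their subset's name.

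**Figure D1:**
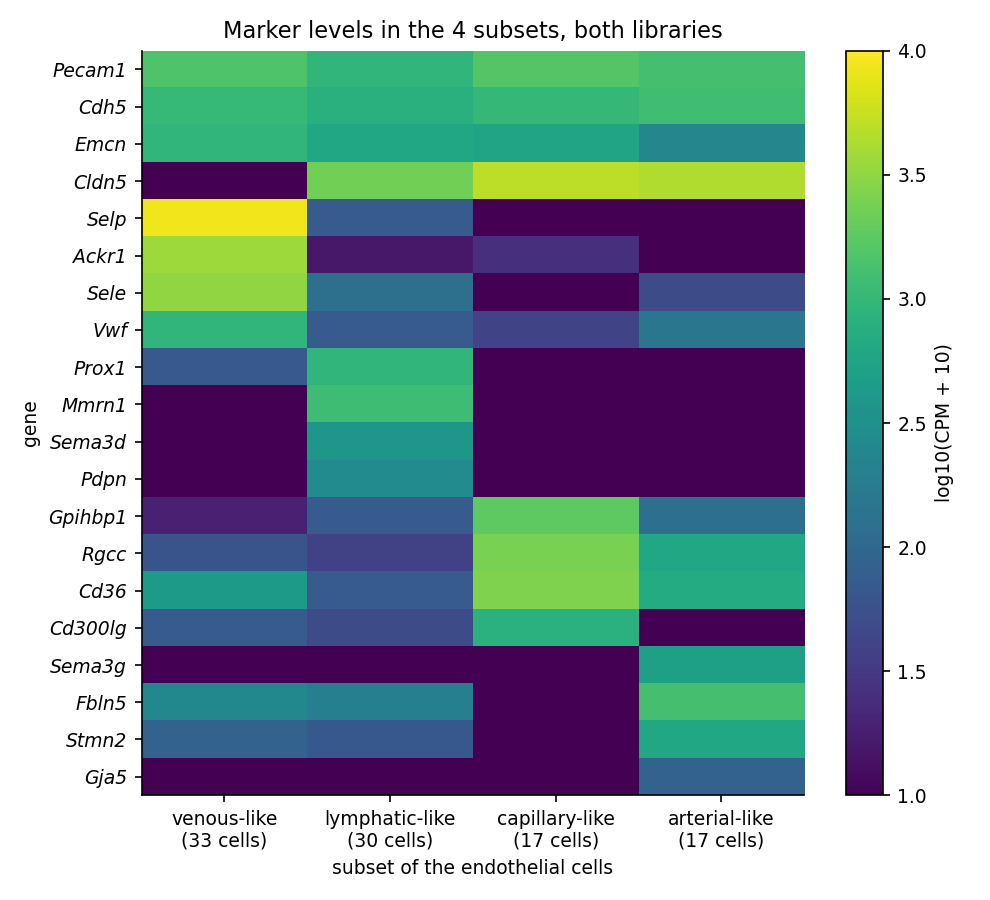
Levels of 20 genes (rows) in the 4 subsets of endothelial cells (columns), UMIs of both libraries summed, coloured by log10(CPM + 10). Pecam1 and Cdh5 were present in each subset, Cldn5 was at 0 in the venous-like cells, and Mmrn1 was confined to the 30 lymphatic-like cells among these subsets.

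Over all genes, 1888 had at least 50 UMIs in the endothelial cells. Of these, 62 (3.28%) were at least 2 times higher in the library labelled CL with an interval above 0, and 56 (2.97%) at least 2 times lower with an interval below 0. Without the fold limit, 241 genes (12.8%) were higher and 212 (11.2%) lower beyond counting error, and the median log2 ratio was 0.04. Below, higher and lower mean beyond counting error in this sense.

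Of the gene lists summed over all endothelial cells, that of the interferon gamma response stood highest in the library labelled CL relative to Ctrl. All 11 of the list's 22 genes with enough UMIs were higher, against 12.8% of all genes. Their median log2 ratio was 2.15. Several of the 11 were scarce in Ctrl and passed the minimum mainly through their CL UMIs. The count of 11 is therefore a description, while the sum over all 22 genes, given further on, does not use that minimum. Some promoters of the list are shown first because the members differ in the sequence elements that interferon-activated factors are known to bind. They are the 250 bases before the RefSeq gene start, 5' to 3' on the gene's strand, build GRCm38.p6, with capitals marking matches on either strand to GAAANNGAAA (the interferon-stimulated response element, ISRE), TTCNNNGAA (the gamma-activated site, GAS) or GGGANNTTCC (a kappa B site). Cxcl10 lies at chr5:92348890-92349139 on the minus strand, with an ISRE match and a kappa B match. Igtp lies at chr11:58199306-58199555 on the plus strand, with a GAS match followed by an ISRE match. Irf1 lies at chr11:53769764-53770013 on the plus strand, with a GAS match. Icam1, an adhesion gene described further on, lies at chr9:21015690-21015939 on the plus strand, with a GAS match.
Cxcl10: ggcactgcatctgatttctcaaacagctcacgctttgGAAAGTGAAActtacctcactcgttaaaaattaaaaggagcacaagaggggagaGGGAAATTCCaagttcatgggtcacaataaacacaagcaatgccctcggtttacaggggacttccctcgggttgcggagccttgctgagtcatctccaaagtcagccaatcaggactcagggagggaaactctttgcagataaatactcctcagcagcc
Igtp: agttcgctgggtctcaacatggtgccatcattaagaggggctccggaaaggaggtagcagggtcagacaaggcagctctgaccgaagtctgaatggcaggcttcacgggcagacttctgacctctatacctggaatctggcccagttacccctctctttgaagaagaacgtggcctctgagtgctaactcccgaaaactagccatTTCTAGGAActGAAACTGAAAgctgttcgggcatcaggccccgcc
Irf1: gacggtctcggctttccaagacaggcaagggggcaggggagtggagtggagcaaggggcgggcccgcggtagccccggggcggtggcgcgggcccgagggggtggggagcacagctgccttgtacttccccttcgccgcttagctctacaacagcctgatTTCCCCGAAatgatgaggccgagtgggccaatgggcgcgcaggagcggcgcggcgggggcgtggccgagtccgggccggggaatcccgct
Icam1: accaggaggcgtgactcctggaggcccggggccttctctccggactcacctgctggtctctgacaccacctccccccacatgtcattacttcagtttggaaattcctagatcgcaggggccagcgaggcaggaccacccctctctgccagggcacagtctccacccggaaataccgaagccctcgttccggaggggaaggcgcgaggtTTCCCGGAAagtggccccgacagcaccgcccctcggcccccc

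RefSeq promoters were found for 8 of the 11 interferon gamma genes, Gbp4, Gbp6 and Iigp1 having no entry. An ISRE match stood in 5 of the 8 (Cxcl10, Gbp2, Gbp3, Gbp7 and Igtp) and in 936 of all 27025 genes with promoter windows of this length. A GAS match stood in 3 of the 8 (Gbp7, Igtp and Irf1) and in 2197 of the 27025 genes. A kappa B match stood in Cxcl10 alone of the 8 and in 368 of the 27025 genes. Of the 5 tested leukocyte adhesion genes with an entry, 2 held a GAS match (Icam1 and Sele) and 0 an ISRE or kappa B match. A match is only a run of letters, and binding was not measured. The patterns are narrow, so a promoter without a match may still hold a variant of the site. The printed Icam1 sequence, for example, holds tggaaattcc, which departs from the kappa B pattern in its first base and was not counted.

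The chemokines of the list attract T cells and NK cells through the receptor CXCR3. Cxcl9 had 8 UMIs in 3 cells of Ctrl and 152 UMIs in 13 cells of CL, a log2 ratio of 4.01 (2.99 to 5.25). Cxcl10 had 18 UMIs in 3 cells and 187 UMIs in 13 cells, a log2 ratio of 3.14 (2.44 to 3.93). With equal weight to the 4 subsets the ratios were 2.96 for Cxcl9 and 1.40 for Cxcl10, and with CPM averaged over cells Cxcl10 stood at 1.53. Stricter limits on epithelial and fibroblast genes gave 2.35 and 2.05, and a minimum of 1000 genes per cell gave 4.26 for Cxcl10. Both were held by a minority of cells in each library, and neither had a UMI in a lymphatic-like cell. In venous-like cells Cxcl10 went from 8 to 160 UMIs, whereas in capillary-like cells it went from 10 to 19 UMIs, a log2 ratio of -0.59 whose interval of -1.77 to 0.68 held 0, and the 10 UMIs came from 1 cell. Cxcl9 was divided between capillary-like (4 and 75 UMIs) and venous-like cells (4 and 77 UMIs).

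The guanylate-binding proteins and immunity-related GTPases attack the membranes around intracellular pathogens. Gbp2 had 40 UMIs in 13 cells of Ctrl and 233 UMIs in 31 cells of CL, with levels of 162 and 801 CPM and a log2 ratio of 2.30 (1.82 to 2.83). Gbp4 (15 and 87 UMIs, log2 ratio 2.30), Gbp6 (13 and 64, 2.06), Gbp3 (18 and 69, 1.70) and Gbp7 (25 and 60, 1.02) were higher too. Gbp2 was the member most present in free RNA, at 36.0 and 285 CPM in empty droplets. Of the GTPases, Igtp had 18 and 104 UMIs (log2 ratio 2.29), Ifi47 16 and 84 (2.15) and Iigp1 98 and 302 (1.39). Irf1, the transcription factor that carries the response forward, had 36 UMIs in 20 cells and 139 UMIs in 32 cells, a log2 ratio of 1.71 (1.17 to 2.28), and 75 of the 139 UMIs lay in arterial-like cells, 39 of them in 1 cell, without which the arterial-like ratio fell from 1.67 to 0.76 (-0.37 to 2.07). After thinning, Irf1 was found in 8 of 44 and 16 of 45 cells at 1791 UMIs, and in 13 of 37 and 15 of 41 cells at 2785 UMIs, so its share of cells did not differ beyond counting error.

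**Figure D2:**
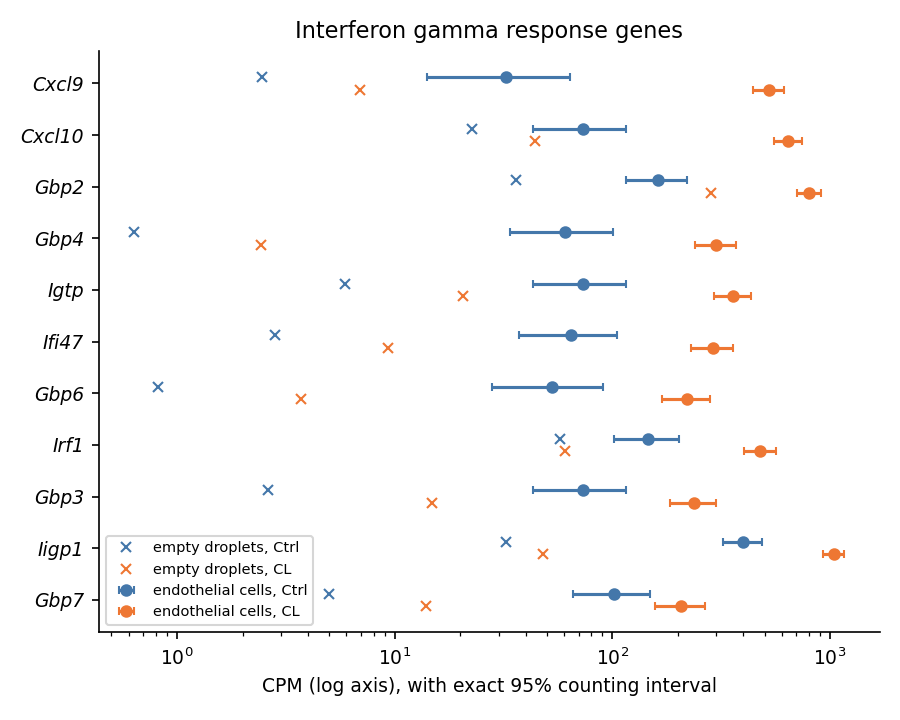
Levels in CPM (log axis) of the 11 interferon gamma genes in endothelial cells of the libraries labelled Ctrl (blue circles) and CL (orange circles), with exact 95% counting intervals, and in empty droplets (crosses). Each gene lay higher in CL than in Ctrl, by log2 ratios of 1.02 (Gbp7) to 4.01 (Cxcl9).

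Summed over its 22 genes, the interferon gamma list went from 1520 CPM (375 UMIs) in Ctrl to 5708 CPM (1661 UMIs) in the library labelled CL, and the log2 ratio was 1.91 (1.75 to 2.07). Empty droplets held 223 and 607 CPM. The ratio differed by subset. Venous-like cells stood at 1594 and 7389 CPM (log2 ratio 2.21, 1.97 to 2.47), capillary-like cells at 2575 and 7516 CPM (1.55, 1.08 to 2.04), arterial-like cells at 2499 and 4909 CPM (0.97, 0.53 to 1.44), and lymphatic-like cells at 1137 and 1724 CPM (0.60, 0.22 to 0.98). The interval of the venous-like cells did not overlap that of the lymphatic-like or the arterial-like cells, but this order rested on few cells: without the 5 deepest endothelial cells of each library the venous-like ratio was 1.46 and the lymphatic-like ratio 1.61. In Ctrl, 1 cell held 61.2% of the list's UMIs in arterial-like cells, and 1 cell 56.6% in lymphatic-like cells. Single cells overlapped between libraries in every subset, with medians of 884 and 4777 CPM in venous-like and 662 and 713 CPM in lymphatic-like cells. With equal weight to the 4 subsets the log2 ratio was 1.46.

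Higher levels were not confined to vessels, and no test of the difference between populations was made. All other retained cells together had a log2 ratio of 1.47 for this list, fibroblasts went from 878 to 2955 CPM (1.75) and luminal cells from 229 to 631 CPM (1.47). Mural cells, which wrap the vessels, went from 1007 to 1318 CPM (0.39, 0.13 to 0.65). When each cell was thinned to 1791 UMIs, 32 of 44 endothelial cells in Ctrl and 41 of 45 in CL held a UMI of the list, against 26.5% and 45.8% of luminal cells.

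**Figure D3:**
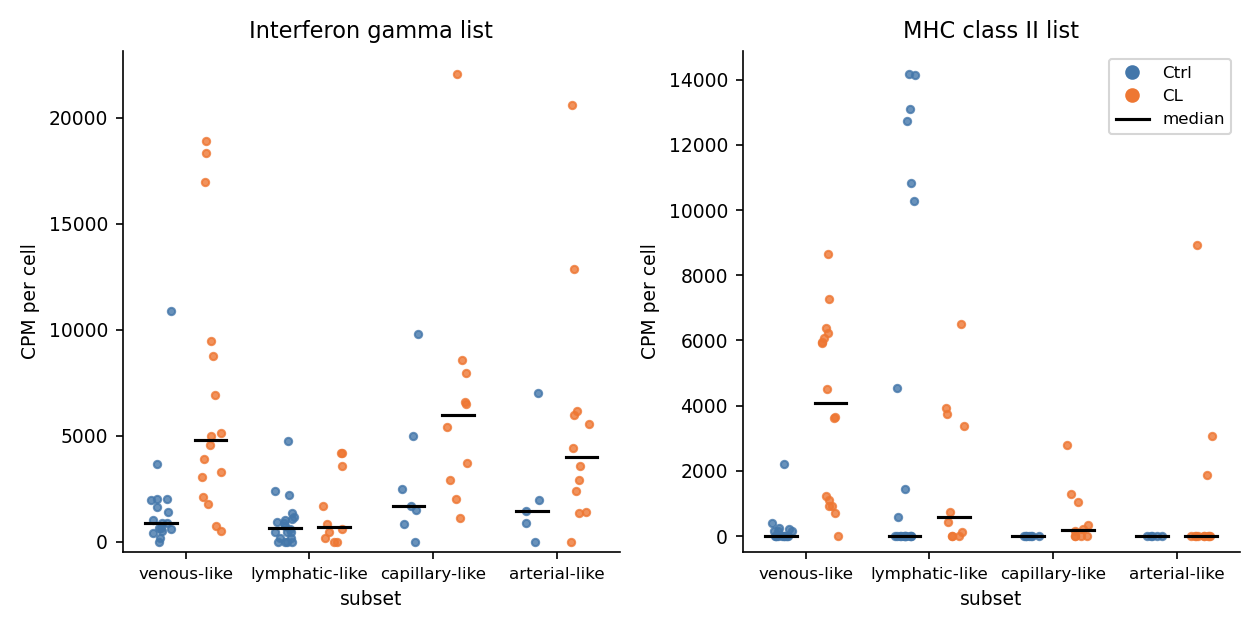
Level of the interferon gamma list (left) and the MHC class II list (right) in each endothelial cell, in CPM, by subset and library, with the median as a line. Venous-like cells had medians of 884 (Ctrl) and 4777 CPM (CL) for the first list and 0 and 4085 CPM for the second, and the cells of both libraries overlapped.

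MHC class II molecules present antigen to CD4 T cells, and their summed level was higher in venous-like cells and lower in lymphatic-like cells of the library labelled CL. In venous-like cells the list went from 17 UMIs in 7 of 17 cells to 511 UMIs in 15 of 16 cells, from 175 to 4108 CPM, a log2 ratio of 4.56 (3.86 to 5.35). After thinning to 1791 UMIs it was found in 3 of 16 and 15 of 16 cells. Cd74, the invariant chain, went from 7 to 276 UMIs there, H2-Aa from 4 to 74 and H2-Ab1 from 1 to 68. In lymphatic-like cells the list went from 430 UMIs in 9 of 20 cells to 111 UMIs in 7 of 10 cells, from 3789 to 1788 CPM, a log2 ratio of -1.08 (-1.40 to -0.78). The Ctrl cells were split, 11 of 20 without a UMI and the highest at 14181 CPM, and 36.7% of the Ctrl UMIs came from 1 cell. By cells, the lymphatic-like values went the other way, with medians of 0 and 583 CPM and, after thinning, 8 of 19 (42.1%) and 6 of 10 (60.0%) cells holding a UMI. Without the 5 deepest cells of each library the ratios of the sums were 3.80 (venous-like) and -0.55 (lymphatic-like).

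Arterial-like and capillary-like cells had no class II UMI in Ctrl, in 5 and 7 cells. In CL, arterial-like cells held 156 UMIs in 3 of 12 cells, 84.6% of them from 1 cell. Their level was 17.6-fold higher when Ctrl is set to a floor of 3 counts per subset. The exact interval of this log2 ratio began at 3.82, which is below that fold. The cell with 84.6% was the deepest of the subset, at 14778 UMIs. It held 15 UMIs of Emcn, against at most 1 in any other arterial-like cell, 1 UMI of Sema3g and 79 UMIs of Icam1. Capillary-like cells held 27 UMIs in 6 of 10 cells. Their level was 3.14-fold higher against the same floor, and the exact interval of the log2 ratio began at 1.25, again below that fold. Over all endothelial cells the list stood at 1812 and 2766 CPM, log2 ratio 0.61 (0.44 to 0.78), with 3 of 4 tested genes higher (12.8% of all genes), and H2-Eb1 at 0.28 (-0.18 to 0.74). With equal weight to the subsets the list's ratio was 1.21. Empty droplets held 417 and 837 CPM, and luminal cells went from 56.7 to 311 CPM (log2 ratio 2.45). The part of free RNA in these values was not tested.

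MHC class I genes, which present peptides from inside the cell to CD8 T cells, stood at 9486 and 13515 CPM, log2 ratio 0.51 (0.44 to 0.59). Of 16 tested genes 15 were higher, against 12.8% of all genes, and H2-T23 stood at 0.26 (-0.13 to 0.67). Genes that supply peptides and genes of the presenting chains were both among them. Psmb10, an immunoproteasome subunit, had 20 and 70 UMIs (log2 ratio 1.57), Tapbp, which loads peptides, 51 and 142 (1.24), and Tap1, the peptide transporter, 17 and 46 (1.20). H2-K1 had 715 and 1120 UMIs (0.41) and B2m 378 and 656 (0.56). By subset the list's log2 ratio was 0.82 in arterial-like, 0.61 in venous-like, 0.25 in capillary-like and -0.03 (-0.17 to 0.12) in lymphatic-like cells. Empty droplets held 4440 and 6163 CPM.

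**Figure D4:**
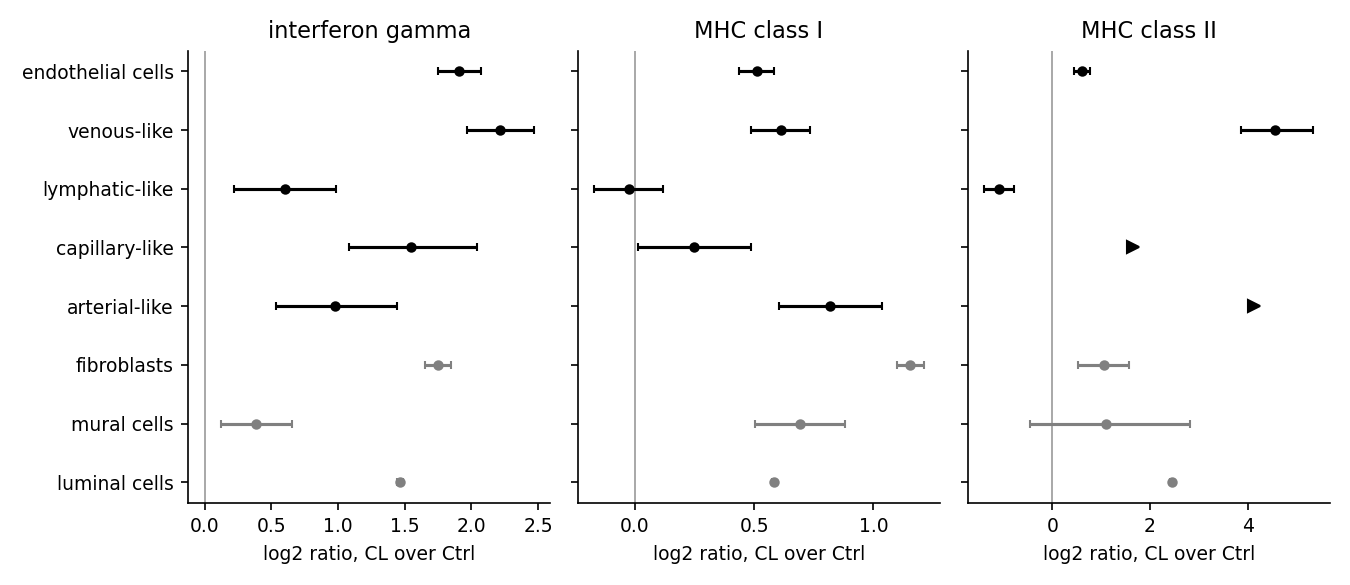
Log2 ratio of summed CPM, library labelled CL over Ctrl, with exact 95% counting intervals, of 3 gene lists in all endothelial cells, their 4 subsets (black) and 3 other populations (grey). Triangles stand where Ctrl had no UMI and mark the log2 fold with Ctrl set to a floor of 3 counts. They are no lower bounds, since the exact intervals began below them. For MHC class II the venous-like value was 4.56 and the lymphatic-like value -1.08.

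Among interferon genes outside these lists, Cd274, which encodes the T cell inhibitor PD-L1, had 5 UMIs in 3 cells of Ctrl and 50 UMIs in 21 cells of CL, a log2 ratio of 3.08 (1.77 to 4.77). Irf7 had 4 and 30 UMIs (2.67, 1.16 to 4.63). Of the type I interferon list only 4 of 16 genes had enough UMIs. Bst2 (114 and 262 UMIs, 0.96) and Isg15 (41 and 85 UMIs, 0.81) were higher, the other 2 within counting error (12.8% of all genes were higher), and the list stood at 1281 and 2381 CPM, log2 ratio 0.89 (0.70 to 1.09).

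Genes for capturing leukocytes did not move as one. Of 9 tested, 5 were higher and 1 lower, against 12.8% and 11.2% of all genes, and the list's sum stood at a log2 ratio of 0.03 (-0.04 to 0.11). By subset the sum was -0.31 (-0.39 to -0.22) in venous-like cells. It was 1.93 (1.45 to 2.44) in arterial-like, 0.88 (0.21 to 1.61) in capillary-like and 0.41 (0.05 to 0.76) in lymphatic-like cells. In these last 3 subsets 1 CL cell held 44.1%, 45.7% and 47.9% of the CL UMIs. Icam1, the ligand of leukocyte integrins, had 261 and 591 UMIs (log2 ratio 0.94, 0.73 to 1.16). It was higher in arterial-like (14 and 187 UMIs, 2.18), capillary-like (9 and 74, 1.52) and lymphatic-like cells (49 and 74, 1.47), and stood at 0.08 (-0.19 to 0.36) in venous-like cells, where its level was 1943 CPM in Ctrl. Single cells weighed heavily, 1 CL cell holding 46 of the 74 UMIs in capillary-like, 45 of the 74 in lymphatic-like and 79 of the 187 in arterial-like cells. Without that cell the ratios were 0.33 (-0.80 to 1.59), 0.49 (-0.22 to 1.18) and 1.81 (1.00 to 2.73), so only the arterial-like interval of these 3 stayed above 0. Vcam1 had 227 and 431 UMIs (0.69), of which arterial-like cells held 1 and 155 (83 in 1 cell) and venous-like cells 215 and 261 (-0.07, -0.34 to 0.19). Selp was the lower gene, with 1106 and 824 UMIs (-0.66, -0.80 to -0.53), also within venous-like cells (1096 and 823 UMIs, -0.77). Sele, the other inducible selectin, had 338 and 393 UMIs (-0.02, -0.23 to 0.19).

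Other chemokines went both ways. The whole chemokine list summed to 1378 (Ctrl) and 3089 CPM (CL), a log2 ratio of 1.16 (0.98 to 1.35). Of its 9 tested genes 4 were higher and 2 lower, against 12.8% and 11.2% of all genes. Cxcl1, which attracts neutrophils, had 75 and 232 UMIs (log2 ratio 1.39), at levels of 304 and 797 CPM beside 326 and 388 CPM in empty droplets. Ccl2, which attracts monocytes, had 47 and 7 UMIs (-2.99, -4.38 to -1.83), 45 of the 47 in lymphatic-like cells, 25 of them in 1 cell. Csf3, the granulocyte growth factor, had 566 and 975 UMIs (0.55, 0.40 to 0.70), with 541 and 841 in venous-like cells and 24 and 125 in lymphatic-like cells. Of those 125, 109 came from 1 cell, without which the lymphatic-like ratio was 0.66 (-0.35 to 1.63), and without the highest venous-like CL cell the venous-like ratio was 0.13 (-0.03 to 0.29). Of 13 tested genes of NF-kB and TNF signalling, 5 were higher, Tnfaip2 (8 and 46 UMIs, 2.29) and Tnfaip3 (30 and 80 UMIs, 1.18) among them, and 2 lower, against 12.8% and 11.2% of all genes. The sum of this list stood at 0.20 (0.13 to 0.27). By subset it was 0.97 in capillary-like, 0.87 in arterial-like and 0.23 in lymphatic-like cells, but -0.22 (-0.31 to -0.12) in venous-like cells.

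Procr, the gene of the endothelial protein C receptor and in the mammary gland also a marker of a basal stem cell population, was measured in these cells at 1139 CPM in Ctrl (281 UMIs, 37 of 49 cells) and 825 CPM in CL (240 UMIs, 27 of 48 cells). The pooled log2 ratio was -0.47 (-0.72 to -0.21). Within subsets it was 0.07 (-0.30 to 0.44) in venous-like cells (108 and 145 UMIs) and -0.20 (-0.61 to 0.19) in lymphatic-like cells (166 and 79 UMIs), and both intervals held 0. Arterial-like cells had 6 and 16 UMIs and capillary-like cells 1 and 0. With equal weight to the subsets it was -0.12. Thinned to 1791 UMIs, 33 of 44 cells (75.0%) in Ctrl and 22 of 45 (48.9%) in CL held a UMI, against 0.36% and 0.171% of luminal cells. The log2 ratio of the endothelial shares was -0.62 (-1.47 to 0.20) at 1791 UMIs and -0.39 (-1.28 to 0.49) at 2785 UMIs. Both intervals held 0. Mural cells held 2177 and 2119 CPM, fibroblasts 178 and 160 CPM, and luminal cells 1.85 and 2.04 CPM.

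Procr belongs to the list of coagulation and vessel tone, of whose 13 tested genes 2 were higher and 3 lower, against 12.8% and 11.2% of all genes. The list's pooled ratio was -0.28 (-0.39 to -0.17), and -0.07 with equal weight to the subsets. Beside Procr, Ptgs1 (36 and 21 UMIs, -1.02), a prostaglandin synthase, and Plat, the tissue plasminogen activator, were lower (241 and 118 UMIs, -1.27), Plat with 218 and 89 UMIs in lymphatic-like cells (-0.42, -0.79 to -0.06). Without the highest CL cell the Plat ratio there was -0.80. The highest Ctrl cell was not removed, so this check could not weaken a lower value. Of 11 tested genes of the basement membrane list 5 were higher and 2 lower, against 12.8% and 11.2% of all genes. Col4a1 (38 and 101 UMIs, 1.17) and Sparc (155 and 313, 0.78) were among the higher ones. Lower were Col18a1 (32 and 19, -0.99) and Igfbp5 (76 and 44, -1.03), a secreted IGF-binding protein that the list also holds. The list's sum had a pooled log2 ratio of 0.48 (0.36 to 0.61), but 0.03 with equal weight to the subsets. Lipid handling genes stood at 0.14 (0.07 to 0.21), and at -0.22 with equal weights. Fabp4, the fatty acid carrier, held 2492 and 3076 UMIs (0.07, -0.01 to 0.14). Of 12 tested genes of VEGF, TIE and Notch signalling, Flt1 and Nrp1 were higher, Nrp2 and Hes1 lower, and 8 were within counting error, shares near the 12.8% and 11.2% of all genes. Of 15 tested genes of junctions and caveolae 3 were higher and 1 lower, also near those shares, and of 15 division genes Pcna alone had enough UMIs (0.18, within counting error).

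**Figure D5:**
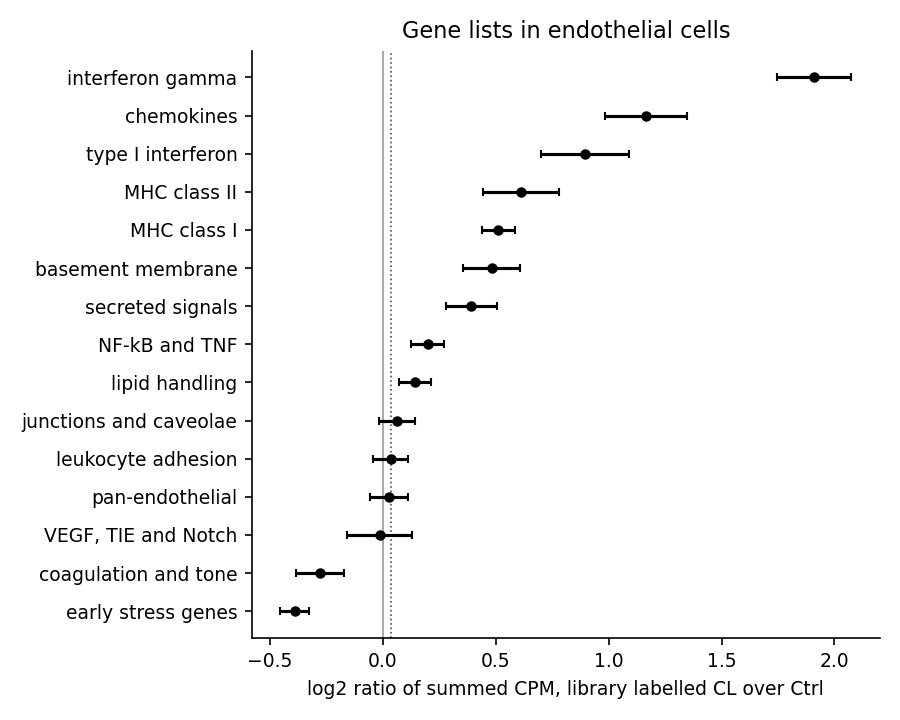
Log2 ratio of summed CPM, library labelled CL over Ctrl, for 15 gene lists in endothelial cells, with exact 95% counting intervals. The solid line marks 0 and the dotted line the median of all tested genes, 0.04. Values ran from -0.39 (early stress genes) to 1.91 (interferon gamma).

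Early stress genes, which dissociation of tissue can induce, were lower, with 11 of 16 tested below Ctrl, against 11.2% of all genes, and none above. They summed to 17890 (Ctrl) and 13635 CPM (CL) (-0.39, -0.45 to -0.33), and both lay under the 19118 and 17846 CPM of empty droplets. The ratio was -0.87 in arterial-like, -0.85 in venous-like and -0.66 in lymphatic-like cells, and 0.26 in capillary-like cells. Without the 5 deepest endothelial cells of each library the pooled ratio was -0.02 (-0.09 to 0.05). Hspa1a, a heat shock gene, had 202 and 60 UMIs, 88.1% of the Ctrl UMIs from 1 cell, and without those deepest cells its log2 ratio was 1.18.

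By the rule for named genes, the 10 highest ratios were those of Rbp7, Cxcl9, Cd274, Cxcl10, Irf7, Fjx1, Gbp2, Gbp4, Igtp and Tnfaip2. Rbp7, a retinol-binding protein of capillaries, had 1 UMI in Ctrl and 33 UMIs in 12 cells of CL, a log2 ratio of 4.81 with an interval of 2.23 to 10.2, in arterial-like and capillary-like cells only among the 4 subsets. With equal weight to the subsets its ratio was 3.43. Fjx1 had 10 and 66 UMIs, 53.0% of the latter from 1 cell. Most of the 10 lowest were genes held mainly by lymphatic-like cells, of which Ctrl held 20 and CL 10. Dusp2, a MAP kinase phosphatase, had 184 and 49 UMIs pooled (-2.15) and 171 and 29 within lymphatic-like cells (-1.69, -2.31 to -1.12). Prelp and Ecm2, genes of matrix proteins, were also lower within that subset (-2.13 and -2.83), whereas Foxp2 (-0.91, -2.17 to 0.19) and Pkhd1l1 (-0.98, -2.15 to 0.06) had intervals that held 0. Lepr, the leptin receptor, was a venous-like gene and had 41 and 11 UMIs there (-2.25, -3.36 to -1.27). The remaining ones were Fmo1, Clca3a1, Fam174b and Hspa1a.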

How the data were processed

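Single cell RNA sequencing counts of 2 libraries, 1 per group, were used. Per the labels, reads were processed with Cell Ranger 2.1.1 on mm10, whereas the file headers name Cell Ranger 4. The authors deposited raw UMI counts, not normalized, as unfiltered matrices of 32285 genes by 6794880 barcodes. The deposited barcode lists (7217 and 10555 entries) do not index the matrix columns, so candidates were the barcodes richest in UMIs, in the number listed for that library. Cells with at least 500 genes and at most 15% mitochondrial UMIs were retained, and Scrublet (scanpy 1.11.5, expected rate 6%) was used to mark doublets, which were kept. The members and gene lists were chosen with earlier results of these data known. UMIs were summed over the cells of a library, or of a subset, and divided by all UMIs of those cells to give CPM. Counts of higher and lower genes cover the 1888 genes with at least 50 UMIs over both libraries. Subsets came from Leiden clustering at resolution 0.5, on 15 principal components of 1500 variable genes with 10 neighbours per cell. A subset took the name of the list with most markers raised, if at least 3 were. A marker counted as raised if detected in at least 10% of the subset's cells, at 2 times or more the median level of all subsets, its own included.

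Genes were named if they chose the cells or belonged to a gene list (those with most UMIs or an interval without 0), or if they were among the 10 highest and 10 lowest ratios, given 50 CPM or more and 30 UMIs or more where the gene was higher, in at least 5 cells and at least 2 times the empty droplets (mitochondrial, ribosomal, haemoglobin and unnamed genes left out), or among the 10 highest ratios of endothelial over other cells with at least 100 CPM. Fjx1, Cd274, Irf7 and Rbp7 were named as highest ratios of CL over Ctrl. On data simulated for the endothelial cells with changed genes, 97% of 4-fold and 54% of 2-fold changes were called. These were Poisson counts per library, without spread between cells or mice, so the rates cover counting error only. A call required an estimate of at least 2 times, which by itself limits the rate for 2-fold changes. H2, Gbp and Hspa1 genes have near-identical copies between which reads may have been split. Alternatives covered cell limits, UMI minimum, TMM factors (edgeR 4.0.16, R 4.3.3), the CPM denominator, mean CPM per cell, stricter marker limits and, added after seeing the data, equal subset weights, other clusterings and named genes within a subset without the CL cell richest in that gene. Software was Python 3.11, numpy 2.4.6 and scipy 1.17.1. The value of 1 gene of a list is not reported here.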

Additional observations from a re-analysis of the deposited data

How the results depend on the processing

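Values here are log2 ratios of CL over Ctrl unless said otherwise. No paired analysis was possible because each group had 1 library. Of 282 alternative values of the summed lists, gene counts and shares, 237 stayed within the interval of the reported value (counts of genes within 1.5 times), 38 moved and 7 whose reported interval excluded 0 changed sign, and of 322 values of named genes 298 stayed, 22 moved and 2 changed sign in that sense. Leukocyte adhesion, whose reported interval held 0, lay between -0.06 and 0.37. A minimum of 1000 genes gave no value for Rbp7, and stricter limits none for Irf7, since Ctrl then had no UMI. The causes were not tested. With equal weight for the subsets, chosen after seeing the data, interferon gamma stood at 1.46, type I interferon at 1.21, MHC class II at 1.21, NF-kB and TNF at 0.30, leukocyte adhesion at 0.13, basement membrane at 0.029, Procr at -0.12, lipid handling at -0.22 and capillary genes at -0.27, with Cd274 at 4.01, Irf7 at 3.73, Rbp7 at 3.43, Cxcl9 at 2.96, Cxcl10 at 1.40, Foxp2 at -0.91, Pkhd1l1 at -0.998, Clca3a1 at -1.15, Hspa1a at -1.17 and Dusp2 at -1.20. With CPM averaged over cells, interferon gamma was 1.71, arterial genes 0.51, MHC class I 0.43, MHC class II 0.28, lipid handling 0.004, capillary genes -0.055, early stress genes -0.18, Cxcl10 1.53 and Hspa1a -0.94. Stricter epithelial and fibroblast limits gave NF-kB and TNF 0.56, leukocyte adhesion 0.37, MHC class II 0.28, venous genes 0.053, arterial genes -0.066, Procr -0.18, lipid handling -0.22, capillary genes -0.23, early stress genes -0.32, Igtp 3.23, Cxcl9 2.35, Cxcl10 2.05, Gbp4 1.46, Hspa1a 0.10 and Pkhd1l1 -3.48, with 35 genes at least 2 times higher and 25 lower. Without the 5 deepest cells per library, MHC class II was 0.33, lipid handling 0.30, capillary genes 0.22, early stress genes -0.023 and Hspa1a 1.18, with 31 genes at least 2 times lower. Within subsets and without those cells, chosen after seeing the data, interferon gamma was 1.46 in venous-like and 1.61 in lymphatic-like cells, and MHC class II 3.80 and -0.55. A minimum of 1000 genes per cell gave lipid handling 0.26, capillary genes 0.18 and Cxcl10 4.26, and 3 UMIs of the selection genes gave early stress genes -0.32 and Fjx1 1.51. Without cells holding mural or leukocyte UMIs, leukocyte adhesion was -0.06 and venous genes -0.27. A minimum of 100 UMIs left 26 genes at least 2 times higher and 24 lower, and a minimum of 20 UMIs gave 142 and 140. The number of cells, 49 and 48, limits every value, and genes with few UMIs could not be compared at this depth.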
